A study of Drosophila melanogaster with 12 samples.

Results

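The 10 genes described here are the phagocytic receptors eater, NimC1, crq, Sr-CI, Sr-CII, drpr and emp and the blood cell markers Pvr, Hml and srp. They were taken by name, as the probe sets whose platform annotation gives 1 of these symbols and no other. All 10 genes were on the array, out of 10844 genes with a symbol of their own, and they had 11 of its 14010 probe sets, because drpr had 2. RNA came from D. mel-2 cells, a Drosophila melanogaster cell line, and was read on 1-colour Affymetrix fly arrays, 1 for each sample.

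The 12 samples fell into 4 groups of 3. The first was nuclear RNA and the second cytoplasmic RNA of cells treated with U2AF50 RNA interference, aimed at the larger protein of the U2AF splicing factor, called depleted cells here. The third was nuclear RNA and the fourth cytoplasmic RNA of cells treated with a non-specific RNA interference, called control cells. All 4 groups came from the same line and all had an RNA interference treatment, and untreated cells were not analysed here. The labels of 9 samples name hypotonic lysis, and those of control cytoplasm replicates 1 and 2 and control nucleus replicate 1 do not. The labels give no purity of the fractions and do not say that replicates came from separate cultures, so each p-value speaks of the spread among these arrays only, part or all of which may be technical.

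Plasmatocytes, the phagocytes of the fly's blood, bind bacteria and dying cells through surface proteins of several families. The Nimrod family (eater, NimC1) carries EGF-like repeats, the CD36 family (crq, emp) spans the membrane at both ends, and class C scavenger receptors (Sr-CI, Sr-CII) have complement control modules. Draper, the product of drpr, signals inside the cell through the adaptor ced-6 and the tyrosine kinase Shark. The mRNA of receptors and secreted proteins is translated at the endoplasmic reticulum, that of adaptors and kinases of this kind on free ribosomes.

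The targeted gene was read first. In the cytoplasm U2af50 had 1029.5 to 1327.0 intensity units in depleted cells and 2474.4 to 5606.2 in control cells, with no overlap. In nuclei it had 1677.5 to 2718.4 in depleted cells and 1589.0 to 1709.7 in control cells, so the nuclear arrays showed no lower level. Across the arrays the 2% trimmed mean was 1000 and the median intensity 334.4 to 496.8. The 11 probe sets of the receptors and markers summed to 44890 to 65430 units in depleted nuclei and 10820 to 12160 in the depleted cytoplasm, and to 56410 to 69000 in control nuclei and 6762 to 8516 in the control cytoplasm. For other blood cell types, the 4 probe sets for markers of lamellocytes, the encapsulating blood cells, summed to 1418 to 3072 over the samples, and the 5 for markers of crystal cells, which carry melanisation enzymes, to 977.6 to 2229. The brightest of each list were the lamellocyte marker PPO3, at percentile 72 of all probe sets, and 1 probe set of the crystal cell marker PPO2, at 65.4. The other lamellocyte probe sets stood at percentiles 37.3 to 46.2 and the other crystal cell ones at 13.9 to 38.9. The 7 probe sets for markers of neurons, glia, fat body and germ cells summed to 1114 to 3508, with 0 probe sets at an intensity of 0 in any of these lists. The part of other cell types in the results below was not tested. The 8 probe sets of 7 further plasmatocyte markers summed to 100900 or more in every nuclear sample and 5190 to 6799 in the cytoplasmic ones, so signal of plasmatocyte genes was present, but little of NimC1, described next.

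The probe sets of 2 genes were near the bottom of the array in every group. NimC1, the surface antigen by which plasmatocytes are commonly stained, had intensities of 23.6, 87.5 and 87.6 in depleted nuclei and 25.5, 10.5 and 15.6 in the depleted cytoplasm. In control cells it had 52.2, 19.3 and 143.6 in nuclei and 72.2, 62.5 and 170.9 in the cytoplasm. Its mean stood at the 3.4th percentile of all probe sets. Sr-CII, the relative of Sr-CI, stood at the 6.7th percentile, with 385.6, 49.5 and 139.5 in depleted nuclei and at most 62.7 in the depleted cytoplasm, and at most 201.7 in control nuclei and 32.2 in the control cytoplasm. Both lay below the filter on weak signal, the 40th percentile of the mean over the arrays, and were not tested. A weak probe set and a silent gene cannot be told apart here, so a low percentile of a probe set does not show a low mRNA level.

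That left 8 genes tested. Of these, crq, Pvr, srp and the brighter drpr probe set lay above the filter's level in all 4 groups, and eater in all but the control cytoplasm. Sr-CI and Hml lay above it in nuclei only, so passing the filter already favoured a nuclear excess for these 2. The membrane protein gene emp was near the filter, at the 42.7th percentile, and lay above its level in depleted cells only.

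**Figure D1:**
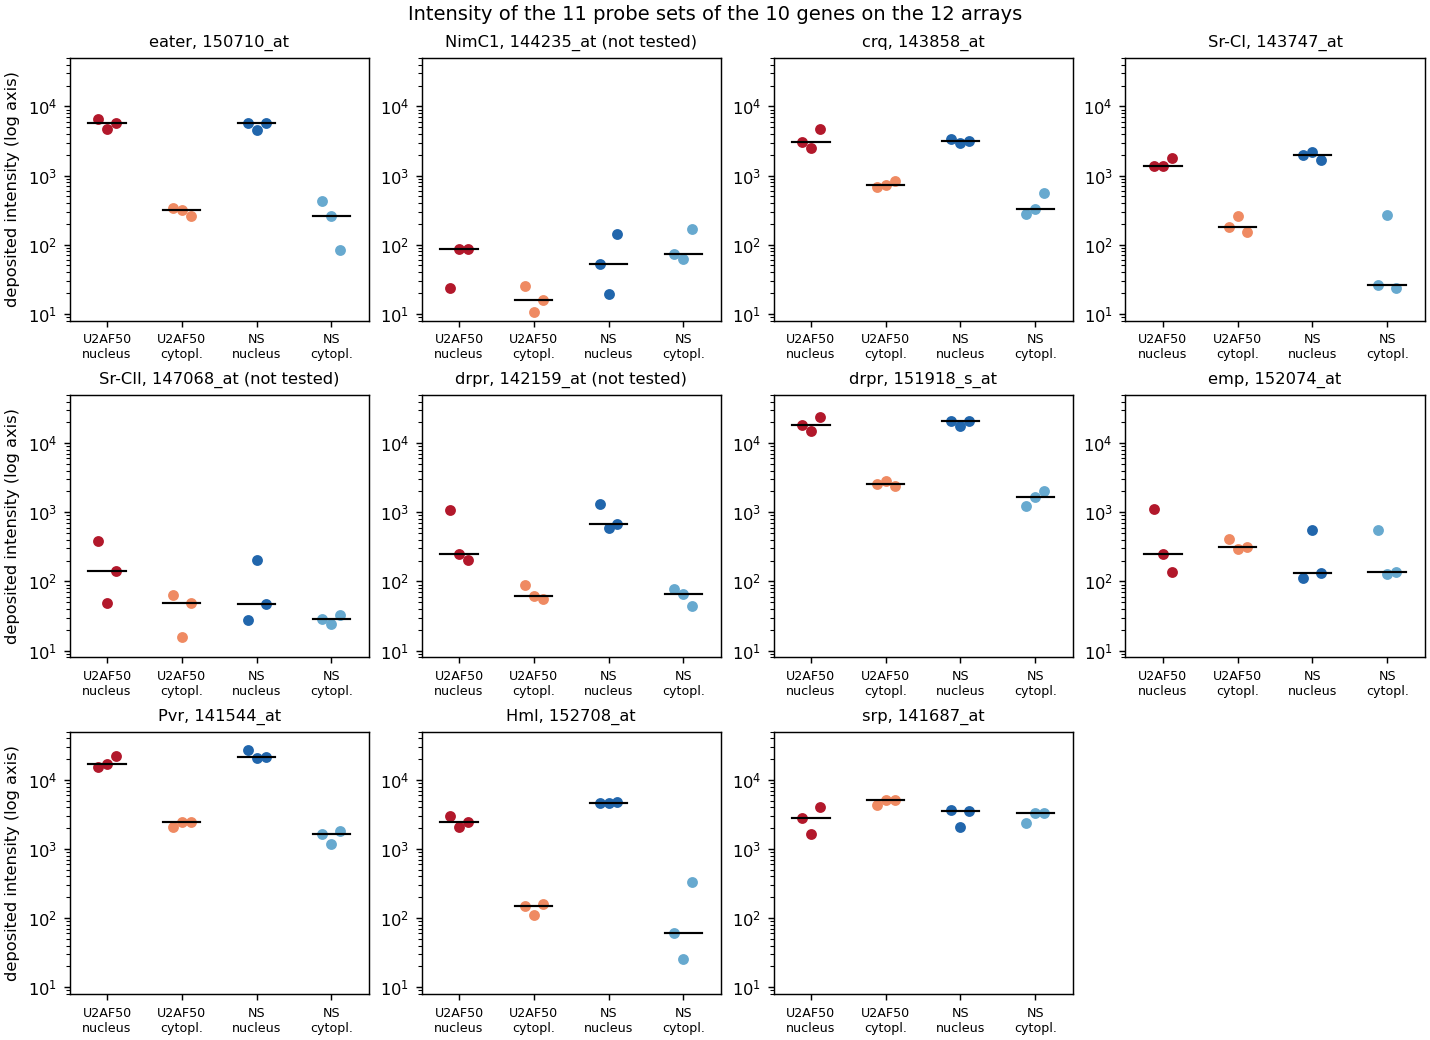
Deposited intensity (log axis) of the 11 probe sets on each of the 12 arrays; points are arrays in order of replicate number, lines are group medians, and NS is non-specific RNA interference. Nuclear points of eater, crq, Sr-CI, drpr, Pvr and Hml lie above all cytoplasmic points of the same treatment, those of emp overlap, and NimC1 and Sr-CII stay at or below 385.6 units.

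The comparison of the fractions asked where the mRNA of these genes lay. In depleted cells 6 of the 8 tested genes were higher in the nuclear fraction and 1, srp, was lower. In control cells the same 6 genes, eater, crq, Sr-CI, drpr, Pvr and Hml, were higher and 0 were lower. Sr-CI and Hml lay above the filter's level in nuclei only, which favoured such counts. Over all 8379 probe sets tested, 17.9% were called higher and 30.9% lower in depleted cells, and 16.9% higher and 25.2% lower in control cells (limma, Benjamini-Hochberg adjusted p under 0.05). The share of all tested probe sets whose fractions did not overlap is not given here. A lack of overlap between fractions therefore only describes the arrays of a gene. The median log2 change of the 8 genes was 2.55 in depleted cells and 3.5 in control cells, against a median over all tested probe sets of -0.29 in depleted and -0.27 in control cells. Without a filter all 10 genes were fitted, and 6 were called higher under each treatment and 1, srp, lower in depleted cells. In that fit, of 13966 probe sets 1570 were called higher and 2500 lower in depleted cells, and 1452 higher and 2001 lower in control cells. The median of the 10 genes was then 2.13 in depleted and 3.1 in control cells, against -0.03 and -0.13 over all probe sets. Since every array was scaled to the same mean, a difference says how an mRNA ranks in each fraction, not which share of it lies in the nucleus. The 12 calls of the 6 genes held in every alternative in which their probe sets were tested and each group kept more than a single array. Without the 3 arrays whose labels do not name hypotonic lysis, the control cytoplasm was left with replicate 3 only. The median of the 8 genes in control cells was then 3.18. RNA measures moved with the fractions in depleted cells. The GAPDH 3' to 5' ratio, which rises as RNA is degraded or copied incompletely, was 4.2 to 8.32 in depleted nuclei and 2.36 to 3.63 in the depleted cytoplasm, and the added hybridisation controls read 13.25 to 15 and 12.09 to 12.47 on the log2 scale, neither with overlap. In control cells the ratio was 4.25 to 7.58 in nuclei and 3.89 to 7.91 in the cytoplasm, and the hybridisation controls read 13.44 to 14.27 and 12.46 to 14.65, both with overlap. With either measure as a covariate the calls of the 6 genes held.

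Among the receptors for bacteria, eater was higher in the nuclear fraction of both treatments. Its intensities were 6467.6, 4773.2 and 5781.7 in depleted nuclei and 342.8, 313.8 and 259.7 in the depleted cytoplasm. In control cells they were 5717.2, 4600.5 and 5770.0 in nuclei and 431.1, 258.3 and 84.6 in the cytoplasm. All nuclear arrays lay above all cytoplasmic ones, and the spread was widest in the control cytoplasm. The log2 difference was 3.72 (SE 0.28, limma adjusted p = 8.21e-09, n = 3 per group) in depleted cells and 4.08 (SE 0.28, adjusted p = 1.89e-09) in control cells, or 13.1-fold and 16.9-fold.

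Sr-CI, a scavenger receptor that binds bacteria, followed the same order of fractions. It had 1394.5, 1354.0 and 1763.9 units in depleted nuclei and 181.1, 263.6 and 153.1 in the depleted cytoplasm. Control nuclei had 1956.3, 2213.9 and 1678.2, and the control cytoplasm 26.3, 271.3 and 23.6. The fractions did not overlap, and replicate 2 of the control cytoplasm stood about at the level of the depleted cytoplasm while the other two lay near the floor of the array. The difference was 2.23 on the log2 scale (SE 0.42, limma adjusted p = 2.65e-04) in depleted cells and 3.63 (SE 0.42, adjusted p = 1.25e-06) in control cells. The values 26.3 and 23.6 lie below the pseudocount of 94.9 added to all intensities, so the size of the control difference is not firm.

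The receptors for dying cells, crq and drpr, were also higher in nuclei. Croquemort, encoded by crq, had 3026.3, 2488.2 and 4745.7 in depleted nuclei and 676.1, 728.1 and 847.3 in the depleted cytoplasm. In control cells crq had 3414.2, 2994.5 and 3170.4 in nuclei and 277.2, 332.8 and 563.8 in the cytoplasm. The fractions did not overlap. The excess was 4.06-fold in depleted cells (log2 difference 2.02, SE 0.29, limma adjusted p = 1.57e-05) and 7.15-fold in control cells (2.84, SE 0.29, adjusted p = 2.41e-07).

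The brighter probe set of drpr, whose protein Draper is the engulfment receptor of glia and blood cells, had 18294.0, 15198.8 and 23824.0 in depleted nuclei and 2551.3, 2840.9 and 2425.8 in the depleted cytoplasm. Control values were 20629.8, 17920.2 and 20696.1 in nuclei and 1243.8, 1685.4 and 2010.2 in the cytoplasm. The groups were tight and far apart, with log2 differences of 2.87 (SE 0.18, limma adjusted p = 6.87e-10) in depleted cells and 3.37 (SE 0.18, adjusted p = 6.07e-11) in control cells. The second drpr probe set stood at the 38th percentile, just below the filter. It had 1061.0, 251.5 and 202.7 in depleted nuclei and 89.5, 61.2 and 56.1 in the depleted cytoplasm, and 1307.7, 591.1 and 675.6 in control nuclei against 77.3, 65.6 and 44.4 in the control cytoplasm. Its fractions did not overlap either. Fitted without a filter, it gave 1.23 (SE 0.52, limma adjusted p = 0.0902) in depleted cells and 2.61 (SE 0.52, adjusted p = 9.27e-04) in control cells, so both probe sets had the same sign but not the same call in depleted cells.

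The exception among the receptors was emp, a CD36 family member related to crq. Its intensities were 1128.5, 249.4 and 135.7 in depleted nuclei and 413.0, 289.4 and 310.5 in the depleted cytoplasm, and 113.2, 550.0 and 133.7 in control nuclei against 554.2, 129.1 and 135.2 in the control cytoplasm. In 3 of the 4 groups 1 array stood far above the other two, and the fractions overlapped. The log2 difference was -0.22 in depleted cells (95% interval -1.52 to 1.08, limma adjusted p = 0.791) and 0.00 in control cells (-1.30 to 1.30, adjusted p = 0.999). These intervals lie below the excess of the 6 other genes but leave room for changes of more than 2-fold in either direction. With the hybridisation controls as a covariate the depleted value was -1.95 (adjusted p = 0.048).

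The blood cell markers fell into 2 kinds. Pvr, the receptor for the fly's PDGF- and VEGF-related growth factors, had 15582.2, 16754.3 and 22336.4 in depleted nuclei and 2048.2, 2439.7 and 2456.5 in the depleted cytoplasm. It had 27449.3, 20674.9 and 21387.0 in control nuclei and 1621.3, 1192.5 and 1828.6 in the control cytoplasm. The nuclear excess was 7.94-fold in depleted cells (log2 difference 2.99, SE 0.18, limma adjusted p = 4.80e-10) and 12.8-fold in control cells (3.68, SE 0.18, adjusted p = 2.32e-11).

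Hml encodes hemolectin, a large secreted protein of the clot. It had 3010.4, 2047.4 and 2429.5 in depleted nuclei and 151.8, 109.4 and 158.6 in the depleted cytoplasm. In control cells Hml had 4662.5, 4561.0 and 4789.0 in nuclei, a tight group, and 60.2, 25.6 and 338.0 in the cytoplasm, a wide one. The fractions did not overlap. Its log2 difference was 3.26 (SE 0.41, limma adjusted p = 3.73e-06) in depleted cells and 4.55 (SE 0.41, adjusted p = 5.34e-08) in control cells. The control cytoplasm lay below the pseudocount of 94.9 on 2 of 3 arrays, so the size of the control difference is not firm. Without the 3 arrays whose labels do not name hypotonic lysis this difference was 3.35, with 338.0 as the only control cytoplasm value left.

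The other kind was srp, which encodes the GATA transcription factor Serpent of blood cells and fat body, a protein of the nucleus with no part on the cell surface. Its intensities were 2779.0, 1638.5 and 3988.2 in depleted nuclei, all below the 4282.6, 5085.0 and 5164.9 of the depleted cytoplasm. Control nuclei had 3673.7, 2084.8 and 3581.7 and the control cytoplasm 2369.4, 3340.8 and 3284.2, which overlapped. In depleted cells the nuclear level was lower than the cytoplasmic one (log2 difference -0.76, SE 0.26, limma adjusted p = 0.0245), and in control cells the difference was 0.01 (95% interval -0.55 to 0.56, adjusted p = 0.984). Of 26 alternative settings 6 lost the call in depleted cells, among them the fit without depleted nucleus replicate 2 (-0.42, adjusted p = 0.153). The fits without depleted cytoplasm replicate 2 (-0.73, adjusted p = 0.0678) or 3 (-0.70, adjusted p = 0.0783) lost it too, as did those with the GAPDH ratio (-0.68, adjusted p = 0.193) or the hybridisation controls (-0.24, adjusted p = 0.657) as a covariate.

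**Figure D2:**
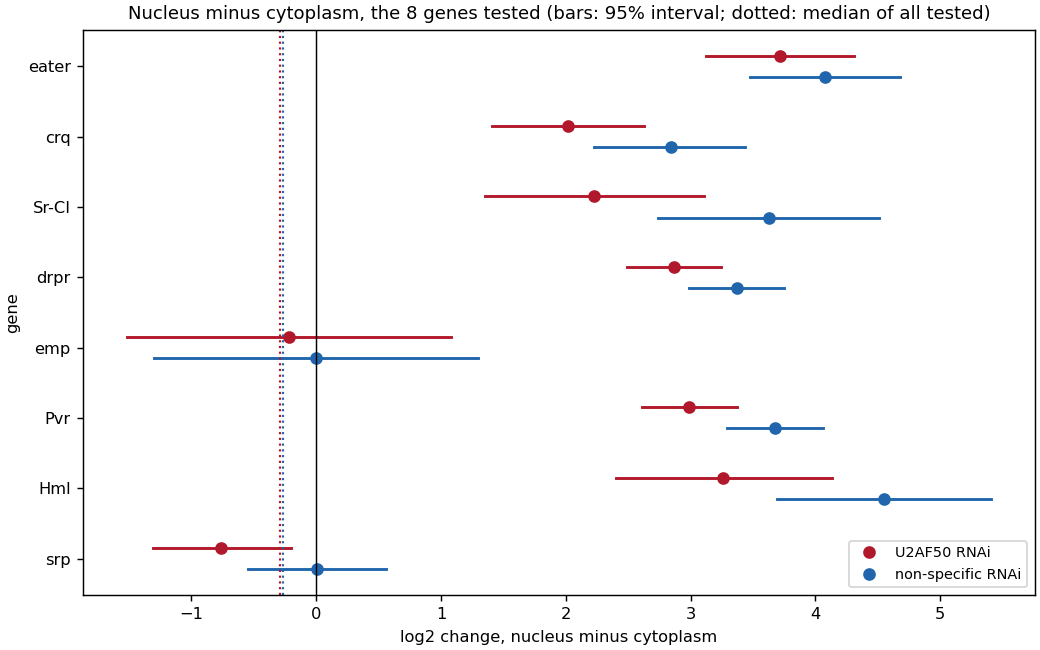
Log2 difference, nucleus minus cytoplasm, for the 8 genes tested, with U2AF50 RNA interference above non-specific RNA interference in each pair; bars are 95% limma intervals and dotted lines the medians of all 8379 tested probe sets. The intervals of eater, crq, Sr-CI, drpr, Pvr and Hml lie above 1 under both treatments, those of emp span 0, and that of srp lies below 0 in depleted cells.

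Further genes of phagocytosis, from lists of surface, secreted and cytosolic proteins, were read in the same way. Of 9 further Nimrod genes 7 were on the array and 5 were tested. NimC4, a receptor for dying cells also called simu, was higher in nuclei, with 1554.7, 1515.0 and 1450.0 in depleted nuclei and 25.9, 200.1 and 17.5 in the depleted cytoplasm. Its log2 difference was 3.17 (SE 0.42, limma adjusted p = 8.06e-06) in depleted cells and 3.43 (SE 0.42, adjusted p = 2.98e-06) in control cells. NimC4 lay above the filter's level in nuclei only, so passing the filter favoured a nuclear excess, and its cytoplasmic signal was too low for a firm size. NimB1, a secreted relative, was lower in nuclei of depleted cells (-1.30, limma adjusted p = 0.0262), which 6 of 25 alternatives lost, among them those without depleted cytoplasm replicate 1 or 2 or depleted nucleus replicate 2 or 3 (adjusted p = 0.0626 to 0.103), and in control cells it had -0.54 (adjusted p = 0.379). NimB2, NimB4 and NimC2 passed the test under neither treatment. Among all tested probe sets 17.9% were called higher and 30.9% lower in depleted cells, and 16.9% higher and 25.2% lower in control cells. In RefSeq's gene order on arm 2L the gene of NimC1 lies among these Nimrod genes, with NimC1 at place 8 and NimC4 at place 23 counted from NimA.

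Of 14 further CD36 family and class C scavenger receptor genes 10 were on the array and 4 tested. One of them, pes, a CD36 family receptor needed for uptake of mycobacteria in fly cell lines, was higher in nuclei, with log2 differences of 2.74 (limma adjusted p = 7.52e-06) in depleted cells and 3.11 (adjusted p = 1.59e-06) in control cells. The other tested genes of this list passed under neither treatment, with values down to -0.02 in depleted and -0.21 in control cells. So 1 of 4 was called higher, where 17.9% of all tested probe sets were in depleted cells and 16.9% in control cells. The 4 tested genes for other surface proteins that bind microbes had 3 higher under each treatment, where 17.9% of all tested probe sets were called higher in depleted cells and 16.9% in control cells. Dscam1, an immunoglobulin protein of blood cells and neurons, had 3 in depleted cells and 3.81 in control cells, and PGRP-LF, a membrane-bound relative of the peptidoglycan receptors, 2.38 and 2.52 (limma adjusted p at most 7.49e-05). PGRP-LF, too, lay above the filter's level in nuclei only, which favoured a nuclear excess. PGRP-LA had 0.58 (adjusted p = 0.0201) in depleted cells and 1.03 (adjusted p = 2.68e-04) in control cells. The depleted call of PGRP-LA was lost in 6 of 26 alternatives, among them median centring (0.07) and the fits without depleted cytoplasm replicate 1 or 2 or depleted nucleus replicate 3 (adjusted p = 0.0586 to 0.0664). PGRP-LE, a peptidoglycan receptor that also works inside the cell, had 0.06 (adjusted p = 0.90) and 0.55 (adjusted p = 0.191).

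Pvf2, a secreted ligand of Pvr and the 1 ligand gene of 3 that was tested, was also higher in nuclei. It had 10709.2, 8921.0 and 10159.8 in depleted nuclei and 772.6, 574.4 and 1000.8 in the depleted cytoplasm. The log2 difference was 3.52 (SE 0.22, limma adjusted p = 6.87e-10) in depleted cells and 3.54 (SE 0.22, adjusted p = 4.38e-10) in control cells. Of 6 tested further plasmatocyte markers, 5 were higher under each treatment, the matrix genes Glt, vkg, Pxn and Col4a1 and the growth factor gene Idgf3, with log2 differences of 3.18 to 5.73 in depleted cells and 3.64 to 5.88 in control cells. The sixth, the matrix gene Ppn, had -0.41 (adjusted p = 0.548) and 1.33 (adjusted p = 0.0523). A further marker on the array, sn, lay below the filter, at percentile 34.5, and was not tested. Over all tested probe sets 17.9% were called higher in depleted cells and 16.9% in control cells.

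Of the cytosolic engulfment genes, those that passed the test were lower in nuclei. Of 12 listed 6 were on the array and all 6 were tested, and 4 were lower and 0 higher in nuclei under each treatment, with medians of -1.35 in depleted cells and -0.83 in control cells. Over all tested probe sets 30.9% were called lower in depleted cells and 25.2% in control cells. The Draper adaptor ced-6 had 1373.6, 1478.8 and 1000 in depleted nuclei and 3766.0, 3359.4 and 3965.9 in the depleted cytoplasm, and 1574.8, 1317.5 and 1436.2 in control nuclei against 1523.9, 3201.6 and 2975.9 in the control cytoplasm. The fractions of ced-6 did not overlap in depleted cells and overlapped in control cells through control cytoplasm replicate 1. Its log2 difference was -1.39 (SE 0.25, limma adjusted p = 1.82e-04) in depleted cells and -0.66 (SE 0.25, adjusted p = 0.0418) in control cells, the second lost in 14 of 26 alternatives, among them those without any 1 of the control arrays other than cytoplasm replicate 1 (adjusted p = 0.0589 to 0.203) and without any 1 of the depleted cytoplasm arrays (adjusted p = 0.0548 to 0.0582).

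The Draper kinase gene Shark had -1.41 (limma adjusted p = 0.00486) in depleted cells and -0.94 (adjusted p = 0.0525) in control cells. SCAR, an activator of actin branching, had -1.47 (adjusted p = 4.02e-04) and -0.86 (adjusted p = 0.0232), and the adaptor gene Crk -1.31 (adjusted p = 4.49e-05) and -0.79 (adjusted p = 0.00441). The F-box gene pall had -0.74 (adjusted p = 0.0744) and -1.15 (adjusted p = 0.0096). Ced-12, an adaptor gene of Rac activation, passed under neither treatment, with -0.56 (adjusted p = 0.108) and -0.43 (adjusted p = 0.238). The control call of SCAR was lost without control nucleus replicate 1 or 3 or control cytoplasm replicate 2 or 3 (adjusted p = 0.0532 to 0.0855). With the GAPDH ratio as a covariate the depleted value of Shark was -0.65, and with the hybridisation controls -0.66, and neither passed. The fitted differences of drpr were thus above 0, and those of its partners ced-6 and Shark below 0, in both treatments. Among all tested probe sets 41.1% lay above 0 in depleted cells and 38.6% in control cells, so a value below 0 was the more common outcome.

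Of the other blood cell transcription factor genes, 1 of 6 was tested. This was ush, whose zinc finger protein binds GATA factors such as Serpent, with 0.31 (limma adjusted p = 0.347) in depleted cells and 0.67 (adjusted p = 0.0465) in control cells. That call was lost in 16 of 26 alternatives, among them the fit without control cytoplasm replicate 1 (0.36, adjusted p = 0.234). Of 3 tested lamellocyte markers, PPO3, a prophenoloxidase, was lower in nuclei of depleted cells (-1.72, limma adjusted p = 0.00396), with -0.82 (adjusted p = 0.156) in control cells, and the 1 tested crystal cell marker, PPO2, passed under neither treatment. None of the 4 tested markers of other cell types passed the test between fractions, and 0 of them had an unadjusted p under 0.05 (limma). Among all tested probe sets 54.8% had such a p in depleted cells and 48.5% in control cells. The 4 markers stood at percentiles 40.3 (repo) to 58.6 (Lsp2) of all probe sets, and no contrast with blood cell genes is drawn from them.

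**Figure D3:**
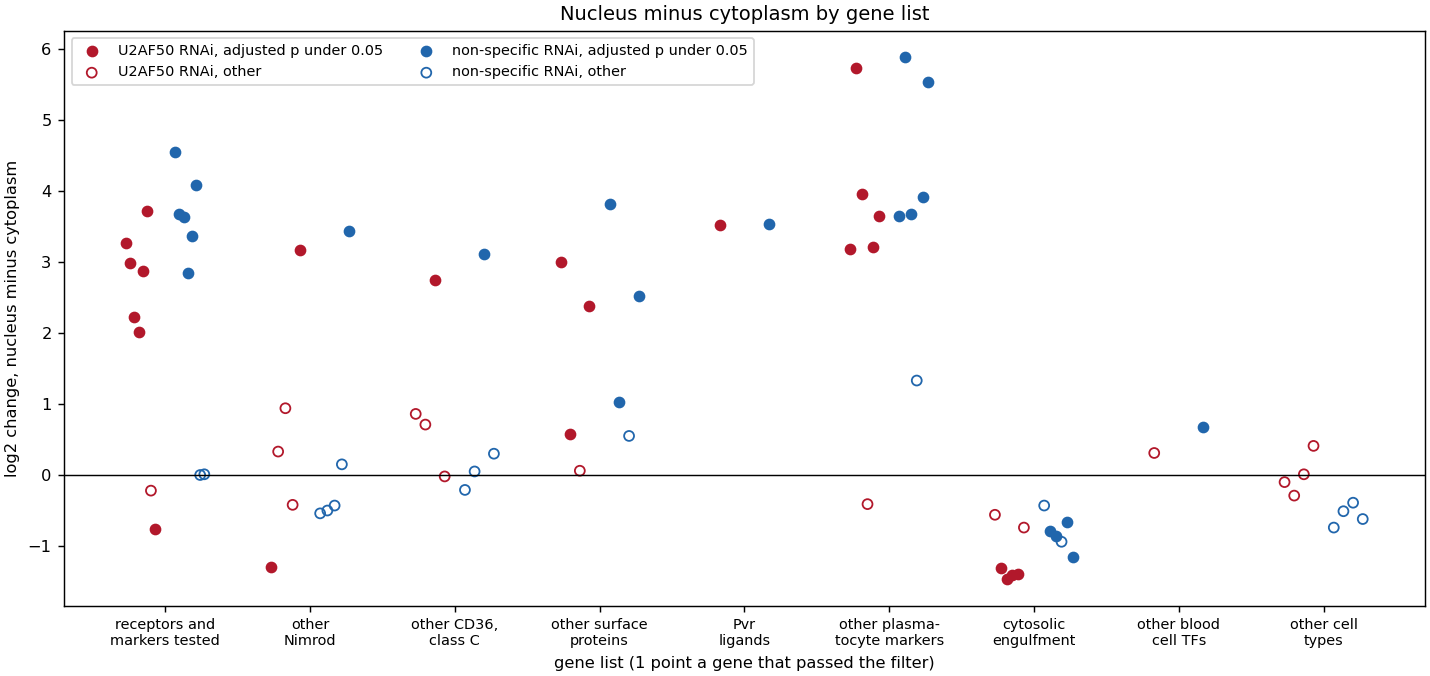
Log2 difference, nucleus minus cytoplasm, of each gene that passed the filter, by gene list (lamellocyte and crystal cell markers are not drawn); filled points had an adjusted p under 0.05, and U2AF50 RNA interference (red) stands left of non-specific RNA interference (blue). The points of Glt are highest, at 5.73 and 5.88, while all points of the cytosolic engulfment genes lie between -1.47 and -0.43.

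The second comparison asked how depletion of U2AF50 changed the level of these genes within a fraction. A lower level can mean fewer cells with the mRNA or less mRNA per cell, which cannot be told apart in these samples. In neither fraction did any of the 8 genes pass the test. Over all probe sets 3.4% were called in nuclei and 2.57% in the cytoplasm (limma, adjusted p under 0.05). At an unadjusted p under 0.05 the counts of the 8 genes were 0 in nuclei and 5 in the cytoplasm, where 16.4% and 15.8% of all tested probe sets had such a p.

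In the cytoplasm the fitted change was above 0 for all 8 genes, between 0.48 (Hml) and 0.99 (Sr-CI) on the log2 scale. The median was 0.61, where all tested probe sets had a median of 0.04 and 53.4% lay above 0. For 4 of the 8 genes, crq, drpr, Pvr and srp, all 3 depleted arrays lay above all 3 control arrays, which 14.5% of tested probe sets did. The intensities of crq were 676.1 to 847.3 in the depleted and 277.2 to 563.8 in the control cytoplasm, a log2 change of 0.95 (95% interval 0.35 to 1.56, limma adjusted p = 0.0992). drpr changed by 0.60 (0.22 to 0.98, adjusted p = 0.0986), Pvr by 0.50 (0.12 to 0.88, adjusted p = 0.174) and srp by 0.62 (0.07 to 1.18, adjusted p = 0.258).

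The other genes had wider errors. Sr-CI had 0.99 (95% interval 0.11 to 1.88, limma adjusted p = 0.257), eater 0.57 (-0.03 to 1.17, adjusted p = 0.344), emp 0.65 (-0.65 to 1.95, adjusted p = 0.653) and Hml 0.48 (-0.38 to 1.34, adjusted p = 0.613). The control cytoplasm of Sr-CI and Hml lay partly below the pseudocount, so the size of their changes is not firm. The count of 0 depended on single arrays and on the scaling. Without control cytoplasm replicate 3, crq (1.25, adjusted p = 0.0199) and drpr (0.75, adjusted p = 0.0325) passed, and without replicate 2 Sr-CI did (1.53, adjusted p = 0.046). With arrays centred on their medians drpr (0.88, adjusted p = 0.0408) and Pvr (0.80, adjusted p = 0.0464) passed, on a scale where the median of all tested probe sets was 0.21. Hml turned to -0.16 with the lysis wording of the labels as a covariate, and to -0.77 without the 3 arrays whose labels do not name hypotonic lysis. The second fit kept only replicate 3 of the control cytoplasm, which had the highest Hml value there.

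RNA measures moved with these groups too. The GAPDH 3' to 5' ratio was 2.90 ± 0.657 in cytoplasmic RNA of depleted cells and 5.42 ± 2.17 in that of control cells (SD, n = 3 each). The hybridisation controls averaged 12.34 ± 0.21 in depleted and 13.49 ± 1.10 in control cytoplasm on the log2 scale. With either as a covariate the 8 changes remained above 0, with medians of 0.54 and 0.41, and 0 passed the test.

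In nuclei the 8 changes went both ways, with a median of -0.03, where all tested probe sets had -0.05. Hml stood lowest, with 2047.4 to 3010.4 in depleted nuclei and 4561.0 to 4789.0 in control nuclei. These did not overlap, and the log2 change of -0.81 did not pass (95% interval -1.67 to 0.06, limma adjusted p = 0.342). Fitted on the 6 nuclear arrays alone, Hml passed (-0.82, limma adjusted p = 0.0347), with an SE of 0.19 in place of 0.41. Pvr had -0.18 (-0.57 to 0.20), Sr-CI -0.40 (-1.28 to 0.48) and srp -0.14 (-0.70 to 0.41). The values were 0.21 for eater (-0.39 to 0.81), 0.14 for crq (-0.47 to 0.74), 0.09 for drpr (-0.29 to 0.47) and 0.43 for emp (-0.87 to 1.74). With arrays centred on their medians those of eater, crq and drpr turned to -0.09, -0.12 and -0.23, on a scale where the median of all tested probe sets was -0.15. In depleted nuclei replicate 2 lay below its group mean for all 8 genes, by a median of 0.23 on the log2 scale, and replicate 3 above it for 6.

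Among the further plasmatocyte markers, Col4a1, a collagen IV chain, fell in nuclei with depletion (log2 change -0.90, limma adjusted p = 0.0164), a call lost in 5 of 26 alternatives, among them those without control nucleus replicate 1 or 2 or depleted nucleus replicate 3 (adjusted p = 0.0521 to 0.0859). Over all probe sets 1.83% were called lower there. Col4a1 had 5771.6, 8006.6 and 5174.6 in depleted nuclei and 13988.8, 14873.4 and 11956.6 in control nuclei. Of the 6 tested markers of this list it was the 1 that passed there. The other nuclear changes went both ways, from -0.93 for vkg (limma adjusted p = 0.292) to 0.57 for Idgf3 (limma adjusted p = 0.0563).

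**Figure D4:**
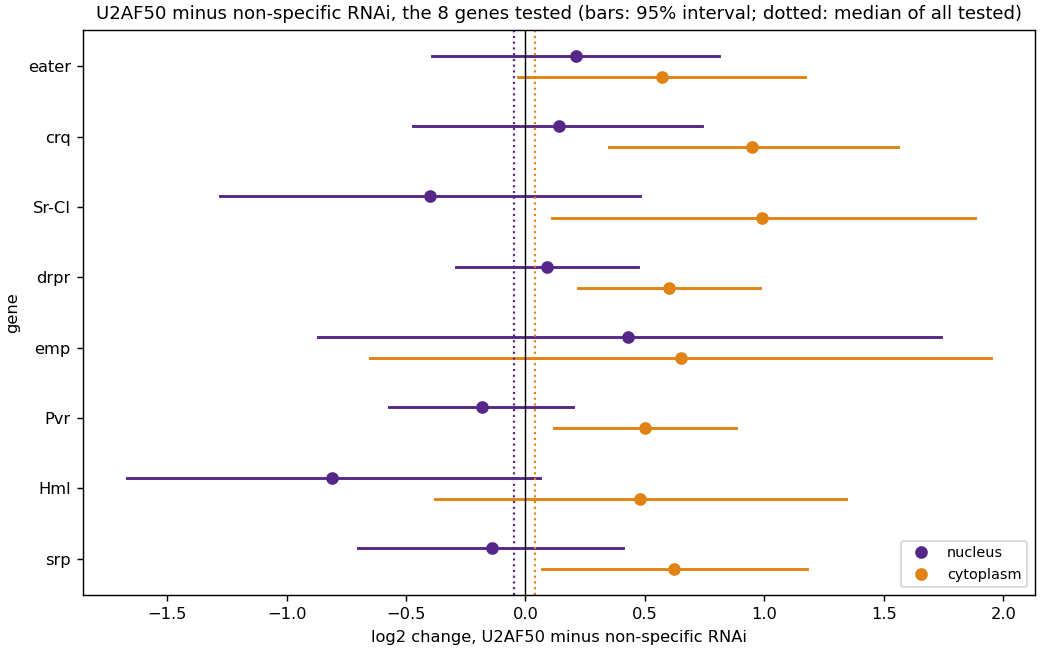
Log2 change, U2AF50 minus non-specific RNA interference, for the 8 genes tested, with the nucleus above the cytoplasm in each pair; bars are 95% limma intervals and dotted lines the medians of all 8379 tested probe sets. All 8 cytoplasmic points lie between 0.48 and 0.99, and nuclear points between -0.81 and 0.43.

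The interaction asked whether depletion changed the nuclear excess itself. Over all tested probe sets 43% lay above 0 in this contrast. All 8 fitted values of the genes were below 0, that is, the difference between nucleus and cytoplasm was smaller or more negative in depleted cells. They ran from -0.22 for emp to -1.40 for Sr-CI, with a median of -0.73, where all tested probe sets had -0.11. None of the 8 passed the test, against 0.167% of all probe sets (limma, adjusted p under 0.05), and 3 had an unadjusted p under 0.05, where 13% of all probe sets did. These were Pvr (-0.69, SE 0.26, adjusted p = 0.277), Sr-CI (-1.40, SE 0.59, adjusted p = 0.327) and Hml (-1.29, SE 0.58, adjusted p = 0.352). In the control cytoplasm Sr-CI had 26.3, 271.3 and 23.6 units and Hml 60.2, 25.6 and 338. Some of these intensities lie below the pseudocount of 94.9, so the sizes for Sr-CI and Hml are not firm. Pvr passed with arrays centred on their medians (-1.31, adjusted p = 0.0355, all tested probe sets -0.38), and Hml passed without control cytoplasm replicate 3 (-1.91, adjusted p = 0.0378). This contrast is built from the same 12 arrays as the changes above and is no separate evidence of them.

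By group, the normalised log2 levels of eater were 12.57 ± 0.20 in depleted nuclei, 8.85 ± 0.14 in the depleted cytoplasm, 12.36 ± 0.13 in control nuclei and 8.28 ± 0.65 in the control cytoplasm (SD, n = 3). Those of Hml were 11.37 ± 0.27, 8.11 ± 0.15, 12.18 ± 0.04 and 7.63 ± 1.08 in the same groups. For srp they were 11.45 ± 0.63, 12.21 ± 0.15, 11.59 ± 0.39 and 11.59 ± 0.22. For each of the 6 genes with a nuclear excess, both nuclear groups therefore stood above both cytoplasmic groups, and the neighbours in that order, the treatments within a fraction, did not differ beyond the test. For srp the depleted cytoplasm was highest, and the other 3 groups, with means of 11.45 to 11.59, differed by less than their SDs.

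The genes most like eater over the 12 arrays, out of 6867 other tested genes, were Alg7 (Pearson's r = 0.995), Glg1 (0.993) and Hmu (0.993). Those most like Hml were Sting (0.991), Cad87A (0.988) and frj (0.987), and those most like srp were Tbcd (0.936), Mes2 (0.927) and CG13868 (0.921). The 12 arrays include both fractions, so r holds any gap between the fractions as well. With group means removed, r was 0.845, 0.698 and 0.691 for the 3 genes named with eater. Among the other receptors and markers, Pvr (0.975) and drpr (0.972) came closest to eater and emp (0.015) and srp (-0.371) were farthest. With group means removed, crq and drpr moved most alike over the arrays (r = 0.88), and eater and Hml most unlike (-0.76), which describes deviations of 3 arrays a group.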

How the data were processed

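RNA of 2 fractions under 2 treatments was measured on 12 arrays. The deposited intensities are linear, with 1 value for each probe set on an array, and the authors had scaled them, as read from the values: without the lowest and highest 2%, every array averages 1000. For image software, background correction and probe summary the sources used here name nothing. The number of arrays limits the precision.

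From these, log2(value + 94.9) was computed, the pseudocount being the 20th percentile of values, without the 44 control probe sets, and quantile normalised over the 12 arrays. This scale makes changes of weak genes look smaller. Probe sets with a mean above the 40th percentile, 8379 of 13966, entered limma (version 3.58.1, R 4.3.3) with 4 group means (intensity trend, 8 residual and 9 prior degrees of freedom, Benjamini-Hochberg adjustment over all tested). The 5 contrasts were nucleus minus cytoplasm for both treatments, U2AF50 minus non-specific RNA interference for both fractions, and their interaction. Counts of genes used 1 probe set a gene, the one with the highest mean.

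In the platform annotation 12444 probe sets had 1 symbol, 327 had several and 1239 had none, and 12394 were matched to RefSeq (Release 6 plus ISO1 MT). Named genes were all members, up to 4 genes with the largest change from each further list (beyond that, genes of a list were named after their values were seen), and the 3 genes most like eater, Hml and srp. A planned measure of protein starts was not made, as no protein sequences were used here. Members and lists were chosen with earlier results of these data known. Alternatives were other scalings, pseudocounts and filters, no trend, a replicate block, covariates, fits on fewer arrays and, added after seeing the data, the lysis wording of the labels. The fit without the 3 arrays lacking that wording kept only replicate 3 of the control cytoplasm, so its values rest on a single array there.

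Equal replicate numbers did not pair the arrays: of 18 correlations between deviations of same-numbered arrays 1 was over 0.1 (range -0.09 to 0.14). On simulated arrays with 200 of 8379 probe sets changed, 70%, 68%, 26% and 0% of log2 changes of 3, 2, 1 and 0.5 were recovered for the treatment contrast in the cytoplasm, and 1.2% of calls were false. The simulated noise was independent for each probe set and no normalisation was run. Errors that probe sets of an array share were thus absent, and these rates need not hold for the real arrays. Pairs of arrays of a group correlated with r of 0.863 to 0.959.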

Additional observations from a re-analysis of the deposited data

How the results depend on the processing

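Of 47 changes of single genes past the threshold, 39 passed in every alternative, including the nuclear excess of eater, crq, Sr-CI, drpr, Pvr and Hml under both treatments wherever their probe sets were tested. With the replicate block 7, 6, 0, 0 and 0 of the tested genes were called in the 5 contrasts, as without it, so it changed no call of theirs. Between control fractions it ended the calls of ced-6 (adjusted p = 0.051) and ush (0.0556). The filter at the 60th percentile left out Sr-CI and emp. For the cytoplasmic change the count was 2 with arrays centred on their medians and 0 to 2 without single arrays. For the nuclear change it was 1 on the arrays of the contrast alone and 0 without single arrays. For the interaction it was 1 with median centring and 0 to 1 without single arrays. Besides emp between control fractions, whose value of 0.00 ran from -0.48 to 0.61, signs turned in 9 values, none past the threshold. These were emp between fractions of depleted cells (0.10 as deposited, -0.29 to 0.28 without single arrays) and in the interaction (0.14 as deposited, -0.66 to 0.28), and srp between control fractions (-0.05 with quantiles within fractions, -0.19 without the 3 arrays lacking the lysis wording, -0.12 to 0.23 without single arrays). The nuclear changes were drpr -0.07 as deposited, eater -0.09, crq -0.12 and drpr -0.23 with median centring, and without single arrays crq -0.11 to 0.32, srp -0.43 to 0.20 and drpr -0.07 to 0.20. Hml in the cytoplasm was -0.16 and -0.77 in the lysis alternatives, and ush between depleted fractions -0.20 with median centring. The cause was not tested.

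Of all probe sets, 215 were called in the cytoplasm (148 higher), against 361 with median centring (317 higher), 125 without a filter, 43 without the trend, 31 with the GAPDH ratio, 61 with hybridisation controls, 33 with the lysis covariate, 24 without those 3 arrays and 52 (without depleted cytoplasm replicate 3) to 378 (without control cytoplasm replicate 3) without single arrays. In nuclei 285 (132 higher) became 155 without the trend, 174 and 139 in the lysis alternatives, 186 on the nuclear arrays alone and 124 to 354 without single arrays. With median centring 69 of 309 were higher. For the interaction 14 became 35 as deposited (10 higher), 183 with median centring (10 higher), 27 with quantiles within fractions (7 higher), 7 without a filter, 25 with the stricter filter, 5 without the trend, 3 with either covariate, 4 and 0 in the lysis alternatives and 3 to 83 without single arrays. Between depleted fractions 4088 became 2669 with hybridisation controls. Without single arrays the counts were 3434 to 4246 there and 3106 to 3717 in control cells.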
